A study of Mus musculus with 3 samples.

Results

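The mitochondrial ribosomal protein genes were taken as every gene of the count table whose Entrez identifier maps to a protein-coding mouse symbol that starts with Mrpl or Mrps followed by a digit. The rule found 78 genes among the 26286 of the table, of which 24176 have a symbol: 49 are named Mrpl and 29 Mrps. The rule used names only, so no measured value chose a gene. By the subunit in which mammalian structures place the protein, 51 of the 78 belong to the large subunit and 26 to the small one. Mrps18a and Mrps30 carry small-subunit names but sit in the large subunit, and Mrps36, counted in neither, was later assigned to a metabolic enzyme complex of the mitochondrial matrix.

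RNA-seq of pre-B cells sorted from mouse bone marrow gave 3 libraries, all of 1 group. The mice were CAG-rtTA3;TRE-GFP-shLuc.1309 bitransgenics, which carry a reverse tetracycline transactivator under the broadly active CAG promoter and a tetracycline-responsive cassette that links GFP to a hairpin called shLuc.1309. They received doxycycline (Dox) for 3 days to induce this control hairpin, so every library comes from induced, GFP-positive cells and none from uninduced ones. The gate was GFP+ B220+ IgM- Kit- CD25+. Whether the libraries are of separate animals is not stated in the labels, so p-values measure only the spread between these samples, part of which may be technical. The Xist counts given below set replicate 1 apart from the others as repeats of the same RNA would not.

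Mitochondria have their own ribosome, which makes the few proteins encoded by mitochondrial DNA, all of them subunits of the respiratory chain or of ATP synthase. Its ribosomal RNAs come from mitochondrial DNA, whereas all of its proteins are encoded in the nucleus, translated in the cytoplasm and imported. Some of these proteins descend from bacterial ribosomal proteins and others were added during the evolution of mitochondria. Its genes are transcribed in nearly all nucleated cells, and B-cell precursors use respiration while they divide and mature. The members lie on 17 chromosomes.

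Total counts were 12418054, 12021576 and 32086649 in replicates 1, 2 and 3, a 2.67-fold range. Of the pre-B markers, all 8 stood between 89.3 (Il2ra, which encodes CD25) and 6749 RPKM (Ighm, the mu heavy chain) on average, and all 8 were lowest in replicate 3, with sums of 11363, 10901 and 9884 RPKM in replicates 1, 2 and 3. RPKM is the read count scaled to gene length, in kilobases, and to library size. Libraries differed in other cells or states: the summed level of the 8 neutrophil markers was 1305, 1564 and 2317 RPKM in replicates 1, 2 and 3, with none of the 8 at 0, and that of the 8 mitosis markers 1157, 920.5 and 1322 RPKM. Sums stayed between 3.92 and 4.86 RPKM for 6 T and NK cell markers and between 7.11 and 7.90 RPKM for 5 erythroid markers. Replicate 1 stood apart in Xist, with 22609 counts, against 94 and 70 in replicates 2 and 3. In bulk samples fewer cells of a type and less RNA per cell cannot be told apart, and the part of these differences in the results below was not tested.

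The promoters of 10 members are shown first, because the YY1 and ETS motifs described further on lie in most of them. Each line gives 100 bases, from 70 before the annotated start site to 30 from it on, read 5′ to 3′ on the gene's own strand, with RefSeq coordinates of GRCm38.p6. Capitals mark matches, on either strand, to GCGCA, any base and GCGC in a row (NRF1, with no match in these 10 stretches), CCGGAAG (ETS, the family of GABP), AANATGGC (YY1) or CACGTG (E-box). The first 6 have a YY1 match just after the start site, Mrps21 and Mrpl43 are 2 of the members with the highest levels, and Mrpl36 and Mrpl23 are the 2 with the lowest. NRF1, GABP and YY1 are transcription factors known as regulators of nuclear genes for mitochondrial proteins.
Mrpl18, chr17:12916062-12916161, minus strand: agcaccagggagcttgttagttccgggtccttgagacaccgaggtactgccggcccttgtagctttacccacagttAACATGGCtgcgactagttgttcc
Mrpl49, chr19:6057726-6057825, minus strand: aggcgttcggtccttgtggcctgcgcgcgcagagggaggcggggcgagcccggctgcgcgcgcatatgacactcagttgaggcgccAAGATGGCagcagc
Mrpl58, chr11:115403682-115403781, plus strand: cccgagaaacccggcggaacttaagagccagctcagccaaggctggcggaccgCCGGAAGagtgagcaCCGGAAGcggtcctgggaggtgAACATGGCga
Mrps18a, chr17:46110934-46111033, plus strand: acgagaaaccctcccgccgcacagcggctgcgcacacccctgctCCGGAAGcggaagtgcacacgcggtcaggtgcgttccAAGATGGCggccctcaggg
Mrps7, chr11:115604070-115604169, plus strand: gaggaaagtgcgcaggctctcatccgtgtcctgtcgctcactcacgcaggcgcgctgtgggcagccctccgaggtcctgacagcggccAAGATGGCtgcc
Mrpl51, chr6:125192130-125192229, plus strand: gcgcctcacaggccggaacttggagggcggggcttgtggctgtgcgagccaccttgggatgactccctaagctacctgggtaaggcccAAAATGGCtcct
Mrps21, chr3:95871485-95871584, minus strand: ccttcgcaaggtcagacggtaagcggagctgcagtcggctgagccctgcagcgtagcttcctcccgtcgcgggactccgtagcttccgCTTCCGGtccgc
Mrpl43, chr19:45006413-45006512, minus strand: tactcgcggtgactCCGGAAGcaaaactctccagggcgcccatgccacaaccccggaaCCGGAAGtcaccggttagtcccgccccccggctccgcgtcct
Mrpl36, chr13:73330939-73331038, plus strand: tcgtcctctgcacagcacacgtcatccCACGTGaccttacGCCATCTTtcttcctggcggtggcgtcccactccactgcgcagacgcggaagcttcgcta
Mrpl23, chr7:142532962-142533061, plus strand: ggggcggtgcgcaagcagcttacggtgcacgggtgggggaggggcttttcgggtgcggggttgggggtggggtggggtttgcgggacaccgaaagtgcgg

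All 78 genes had counts in every library, and all 78 passed the filter on low counts that kept 12147 genes for testing. Their median level was 4.43 ± 0.05 on the log2(RPKM + 0.5) scale (SD, n = 3), or 21.1 RPKM, against 3.78 and 13.2 RPKM for all genes tested. That direction rests on the division by length, since the members are shorter (median 1053 bases, against 2654): by CPM, a count scaled to library size alone, their median was 22.03, against 31.4, a log2 difference of -0.47. At 10 RPKM or more in every library stood 63 of the 78 genes. The share was 25.3% of all table genes and 54.8% of the genes tested. All 78 reached 1 RPKM in every library, as did 11005 of the 12147 genes tested. At 30 RPKM or more stood 21 members (26.9%), close to the 24.1% of genes tested. The levels ran from 79.3 RPKM for Mrps21 to 1.53 RPKM for Mrpl23, a 52.0-fold range. Most genes were closer than that: 55 lay within 2-fold of the median, 9 above it by more and 14 below it by more. The SD of the log2 levels was 1.10 over the members, against 1.97 over all genes tested.

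Mrps21, a very short protein of the small subunit with a bacterial counterpart, had 81.1, 74.6 and 82.2 RPKM in replicates 1, 2 and 3, the highest mean of the set. Mrpl18, a protein of the central protuberance of the large subunit, had 59.9, 60.7 and 71.9 RPKM, and Mrpl49, a large-subunit protein without a bacterial counterpart, 62.9, 64.7 and 62.7 RPKM. The lowest library of Mrps21 lay above the highest of Mrpl18, whereas the ranges of Mrpl18 and Mrpl49 overlapped. Mrpl43, also without a bacterial counterpart, followed at 54.6 ± 1.68 RPKM, below Mrpl49 in every library. The next 4 were Mrpl20 (48.1 ± 5.23 RPKM), Mrpl9 (46.9 ± 2.98 RPKM), Mrpl52 (44.5 ± 5.55 RPKM) and Mrpl24 (44.4 ± 3.64 RPKM), whose ranges overlapped. Of the 8 highest genes 7 were of the large subunit, which holds 51 of the 78, and most of the 8 lowest were too.

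At the other end, Mrpl23, a protein at the exit of the nascent chain tunnel, had 1.38, 1.43 and 1.76 RPKM, from 10, 10 and 33 counts. The exact 95% Poisson intervals of these values, which cover counting error only, were 0.663 to 2.54, 0.688 to 2.64 and 1.21 to 2.47 RPKM. Mrpl36, a small zinc-binding protein of the large subunit, had 2.41, 1.94 and 2.72 RPKM from 27, 21 and 79 counts. Both were lowest also without division by length, at 0.888 and 2.13 CPM, against 5.30 CPM for the next, Mrps18b. The 6 genes above them were Mrps25 (2.56 ± 0.478 RPKM), Mrpl17 (3.14 ± 0.180 RPKM), Mrpl1 (4.98 ± 0.608 RPKM), Mrps18b (5.03 ± 1.22 RPKM), Mrpl19 (5.49 ± 0.278 RPKM) and Mrpl35 (6.02 ± 0.271 RPKM). In the order of all 78 levels, 68 of the 77 pairs of neighbours had overlapping ranges over the libraries, so single steps in that order mostly do not separate genes. Steps without overlap of the library values included Mrpl23 to Mrpl36, Mrps25 to Mrpl17 and Mrpl17 to Mrpl1, with counting error left aside. In replicate 1 the Poisson interval of Mrpl36, 1.59 to 3.51 RPKM, overlapped that of Mrpl23. Those of Mrps25, 2.48 to 3.26 RPKM, and Mrpl17, 2.92 to 3.71 RPKM, also overlapped there. That of Mrpl1, 4.36 to 5.59 RPKM, lay above that of Mrpl17.

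**Figure D1:**
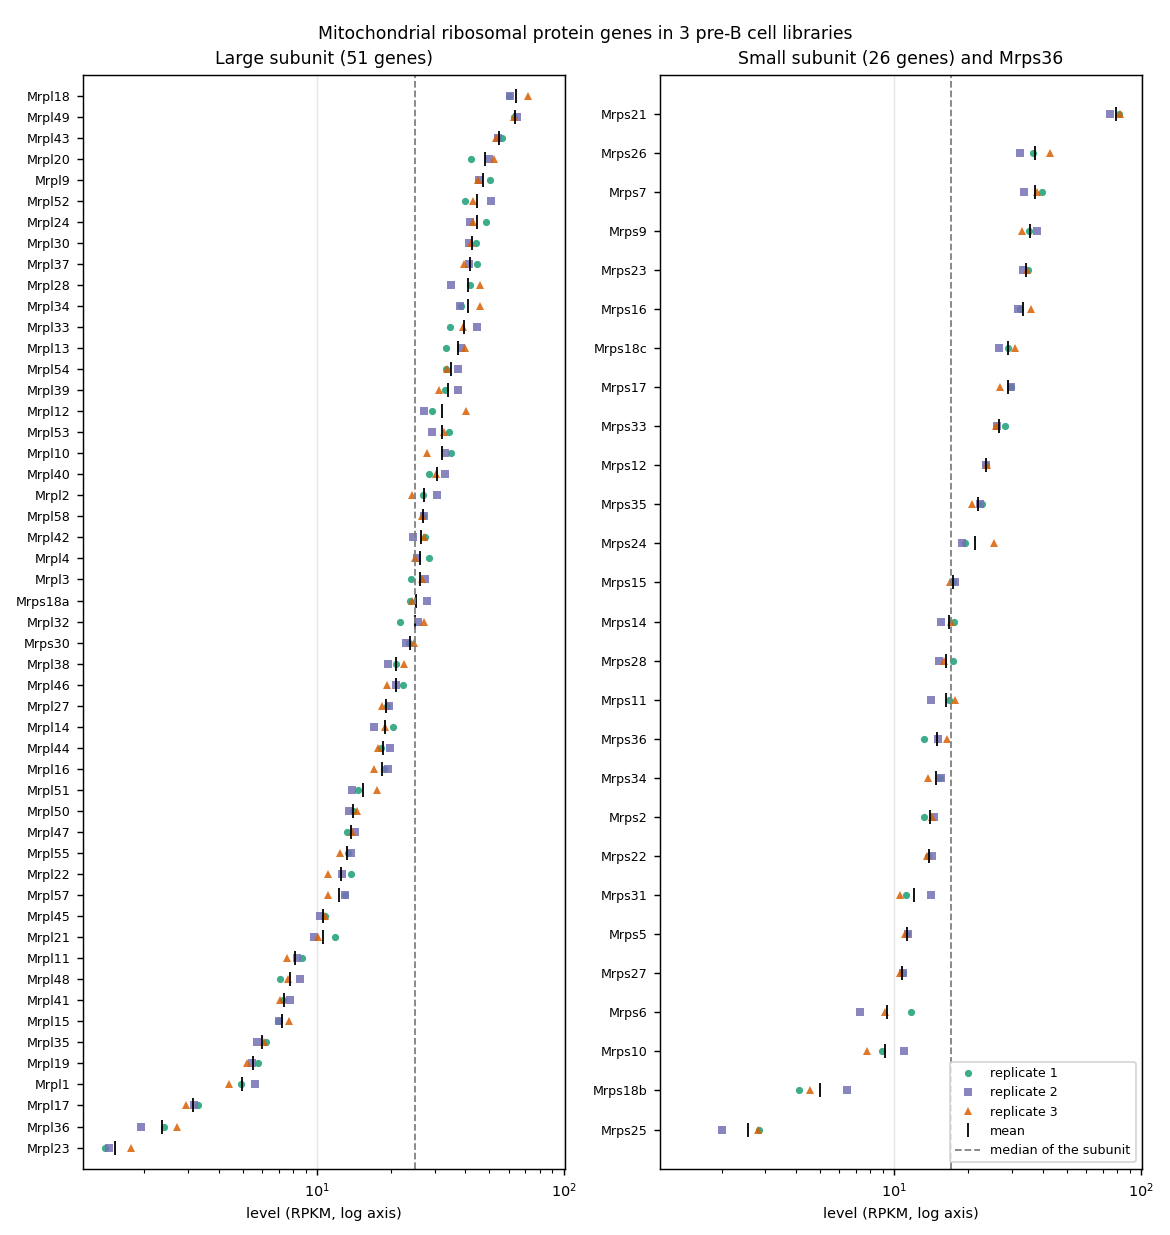
Level of each of the 78 genes in RPKM (log axis) in replicates 1, 2 and 3, with the mean as a black bar and the median of each subunit as a dashed line. The genes run from 79.3 RPKM for Mrps21 to 1.53 RPKM for Mrpl23, a range far wider than that between the libraries of any 1 gene, although genes next to each other in the order mostly overlap.

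Large-subunit genes had the higher median level. Their median was 4.59, 4.65 and 4.64 log2(RPKM + 0.5) in replicates 1, 2 and 3, against 4.16, 4.09 and 4.16 for the small subunit. The difference was 0.49 ± 0.06 (large minus small, SD, n = 3), or 1.402-fold, and lay between 0.43 and 0.55 in every library. It was small beside the spread of the genes within a subunit, whose log2 levels had SDs of 1.17 in the large and 0.98 in the small one. The low end ran the other way, with a 10th percentile of 6.02 RPKM in the large and 9.30 RPKM in the small subunit. At 10 RPKM or more in every library stood 78.4% of the large-subunit and 84.6% of the small-subunit genes. Members with a bacterial counterpart (46 genes) differed from the other 32 by -0.12 ± 0.08 in median. That difference ran one way in the large subunit (-0.17 ± 0.03) and the other way in the small one (0.40 ± 0.15).

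Within the large subunit, the proteins at the catalytic centre and its surroundings were of middle rank. Mrpl2 and Mrpl3, which help to fold the core of the large ribosomal RNA, had 27.3 ± 3.13 and 26.1 ± 1.76 RPKM, Mrpl4 26.3 ± 1.82 RPKM, Mrpl16 18.4 ± 1.24 RPKM and Mrpl27 19.1 ± 0.633 RPKM. The stalk that recruits translation factors is built on Mrpl11 and Mrpl10 and carries Mrpl12. Its genes were unequal per length: Mrpl12 had 32.2 ± 6.99 RPKM and Mrpl10 32.1 ± 3.62 RPKM, but Mrpl11 only 8.18 ± 0.560 RPKM, with no overlap of its libraries with theirs. Without division by length, Mrpl12 had 30.6 ± 6.63 CPM, Mrpl10 53.9 ± 6.09 CPM and Mrpl11 23.6 ± 1.61 CPM. Much of the gap between Mrpl12 and Mrpl11 thus rests on their table lengths, 949 and 2882 bases. Mrpl1, of the opposite stalk, was lower still per length, with 20.8 ± 2.53 CPM at a length of 4170 bases.

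The proteins around the tunnel exit, through which new chains meet the inner membrane, covered most of the range of the set. Mrpl24 had 44.4 ± 3.64 RPKM and Mrpl39 33.9 ± 3.13 RPKM, Mrpl44 18.6 ± 1.12 RPKM, Mrpl47 13.8 ± 0.531 RPKM, Mrpl22 12.5 ± 1.32 RPKM and Mrpl23 the lowest level of all. Mrpl45, which holds the ribosome at the membrane, had 10.8, 10.3 and 10.8 RPKM, with the highest library 1.045 times the lowest. Of the central protuberance, Mrpl40 had 30.6 ± 2.39 RPKM, Mrpl38 21.0 ± 1.52 RPKM, Mrpl46 20.8 ± 1.54 RPKM and Mrpl48 7.78 ± 0.730 RPKM, all below Mrpl18.

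Mrpl58, a ribosome-bound peptidyl-tRNA hydrolase that is also a structural part of the large subunit, had 27.0, 27.3 and 26.6 RPKM. Mrps30 and Mrps18a, the large-subunit proteins with small-subunit names, had 23.8 ± 0.926 and 25.3 ± 2.22 RPKM, both close to the large-subunit median of 24.9 RPKM. Mrpl41, without a bacterial counterpart, was far below it at 7.39 ± 0.364 RPKM, from 17.9 CPM and a table length of 2423 bases. A GRCm38 annotation gives this gene 888 exon bases, and with that length its RPKM would be higher. Its distance from the median thus depends on the length used. Among other large-subunit proteins of bacterial descent, Mrpl30, Mrpl28, Mrpl34, Mrpl33 and Mrpl13 had means between 37.2 and 42.5 RPKM, and Mrpl32, Mrpl14, Mrpl55 and Mrpl21 means of 24.9, 18.8, 13.2 and 10.6 RPKM. Of those without a bacterial counterpart, Mrpl37, Mrpl54, Mrpl53 and Mrpl42 had means of 41.8, 34.8, 32.2 and 26.3 RPKM, and Mrpl51, Mrpl50 and Mrpl57 means of 15.4, 14.04 and 12.3 RPKM.

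In the small subunit the decoding centre protein Mrps12 had 23.7, 23.5 and 23.7 RPKM, the smallest spread of the 78 genes, with its highest library 1.007 times its lowest. The head proteins Mrps7 (37.1 ± 3.08 RPKM) and Mrps9 (35.4 ± 2.40 RPKM) were among the highest of the subunit, with Mrps14 (16.7 ± 1.02 RPKM) and Mrps10 (9.22 ± 1.60 RPKM) below them. Mrps24 and Mrps5, at the entry of the messenger RNA, had 21.2 ± 3.66 and 11.3 ± 0.156 RPKM. Of the platform, Mrps11 had 16.2 ± 1.83 RPKM and Mrps6 9.37 ± 2.20 RPKM. The other members of bacterial descent, Mrps16, Mrps17, Mrps15, Mrps28 and Mrps2, had means of 33.3, 28.8, 17.3, 16.2 and 13.98 RPKM.

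The Mrps18 family holds 3 paralogs of 1 bacterial protein that occupy different places in the mammalian ribosome. Mrps18c stood at 29.0, 26.6 and 31.015 RPKM, Mrps18a at 23.8, 27.8 and 24.2 RPKM, and Mrps18b at 4.13, 6.42 and 4.55 RPKM. Mrps18b lay below both others in every library, and Mrps18a and Mrps18c overlapped. Of the small-subunit proteins without a bacterial counterpart, Mrps26 (37.2 ± 5.18 RPKM), Mrps23 (34.2 ± 0.853 RPKM), Mrps33 (26.7 ± 1.23 RPKM) and Mrps35 (21.96 ± 1.08 RPKM) were above the subunit median of 17.0 RPKM. Mrps34 (14.8 ± 1.02 RPKM), Mrps22 (13.9 ± 0.352 RPKM), Mrps31 (11.98 ± 1.88 RPKM), Mrps27 (10.8 ± 0.196 RPKM), and Mrps25 were below it. Mrps36, the gene outside the ribosome, had 13.3, 15.03 and 16.5 RPKM and thus lay within the range of the others.

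The order of the genes depended on the division by length. All 7 members longer than 2500 bases were among the 14 lowest by RPKM, and over the 78 genes the log2 level correlated with log2 length at a Pearson r of -0.51 (Spearman rho -0.40). Over the same genes, length and CPM correlated at a rho of 0.39, and RPKM and CPM at a rho of 0.64. These are correlations across genes of the same libraries, which share their depth and are not independent replicates, and RPKM contains the length. Mrpl17, whose length is 6712 bases in the table, was 75th by RPKM and 43rd by CPM, and Mrpl15 70th and 23rd. Mrps21, with 407 bases the shortest, was 1st by RPKM and 20th by CPM, where Mrpl49 led with 109 CPM. Mrpl23 and Mrpl36 were 78th and 77th on both scales. The table gives 1 length per gene, so the isoform that the cells use was not tested.

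**Figure D2:**
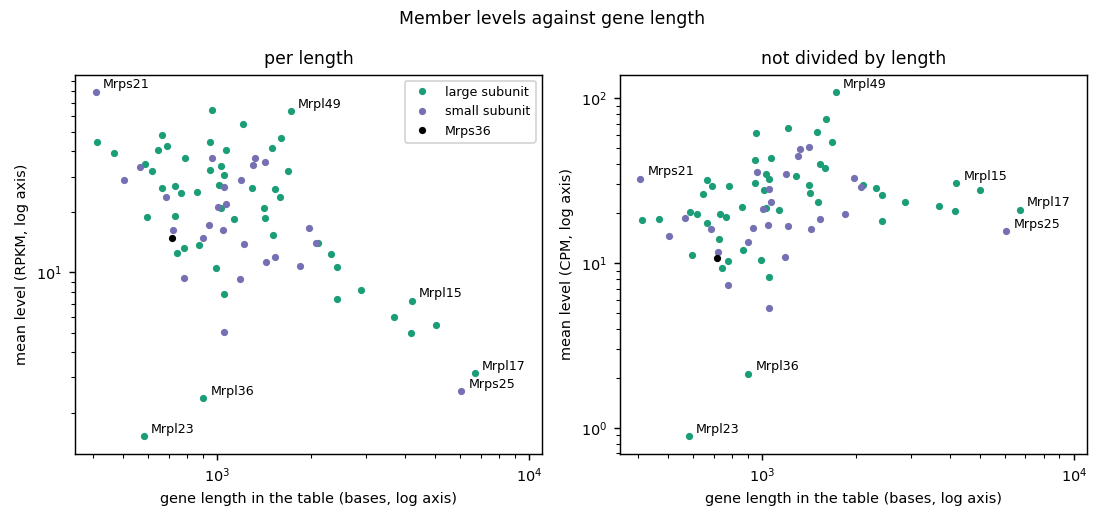
Mean level of each gene against its length in the table (both log axes), as RPKM on the left and CPM on the right, coloured by subunit. The longest genes are low by RPKM and of middle rank by CPM, whereas Mrpl23 and Mrpl36 are lowest in both panels.

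The genes of the set were set beside other genes of mitochondrial translation. The 5 ribosomal subunits named outside the Mrpl and Mrps series were somewhat higher, with a difference in median of -0.39 ± 0.06 (members minus these) on the log2 scale. Aurkaip1 had 53.97 ± 1.44 RPKM, Chchd1 43.4 ± 1.68 RPKM, Gadd45gip1 27.9 ± 1.86 RPKM, Ptcd3 20.1 ± 1.07 RPKM and Dap3 11.6 ± 0.736 RPKM. The other machinery was lower per length. The members' median exceeded that of 15 mitochondrial translation factors by 0.87 ± 0.06 (1.83-fold), that of 17 mitochondrial aminoacyl-tRNA synthetases by 1.21 ± 0.05 (2.31-fold), and that of 25 genes of ribosome assembly and ribosomal RNA modification by 1.54 ± 0.03 (2.91-fold). It exceeded that of 10 genes of mitochondrial transcription and genome maintenance by 1.61 ± 0.21 (3.05-fold). Each of these differences had the same sign in all 3 libraries. By CPM the members stood above the assembly and genome maintenance lists (0.61 and 0.84), not apart from the translation factors (0.0183 ± 0.162) and slightly below the synthetases (-0.06), so the differences from these 2 lists rest on the division by length.

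In the translation factor list, Oxa1l (33.1 ± 0.796 RPKM), the insertase that receives new chains, and Slirp (25.2 ± 1.83 RPKM), which stabilises mitochondrial messenger RNA, were highest, and the recycling factor Mrrf (4.66 ± 0.148 RPKM) and the release factor Mtrf1 (2.82 ± 0.240 RPKM) lowest. The assembly list was led by the helicase Dhx30 (36.4 ± 1.88 RPKM), and its lowest gene was Ybey (1.97 ± 0.106 RPKM). Among the transcription and genome genes, the DNA polymerase subunit Polg (42.5 ± 2.78 RPKM) stood above Tfam (19.3 ± 0.952 RPKM) and the RNA polymerase Polrmt (16.7 ± 1.05 RPKM), and the exonuclease Mgme1 was lowest at 3.04 ± 1.06 RPKM. The 13 protein genes of mitochondrial DNA, the templates of this ribosome, had no match by symbol and were not analysed here.

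Respiratory chain subunits and cytoplasmic ribosomal proteins stood above the set. The members' median was below that of 73 nuclear respiratory chain and ATP synthase subunits by 1.45 ± 0.05 on the log2 scale (0.366-fold) and below that of 79 cytoplasmic ribosomal proteins by 2.00 ± 0.12 (0.251-fold). The members were also closer together: their log2 levels had an SD of 1.10, against 1.73 for the respiratory subunits and 2.05 for the cytoplasmic ribosomal proteins. Some genes of both of these lists were near 0, such as Uqcr11, Cox8a and Rpl39, and no member was. Sequence shared with other genes was measured for the members only, so its part in these levels and spreads was not tested.

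**Figure D3:**
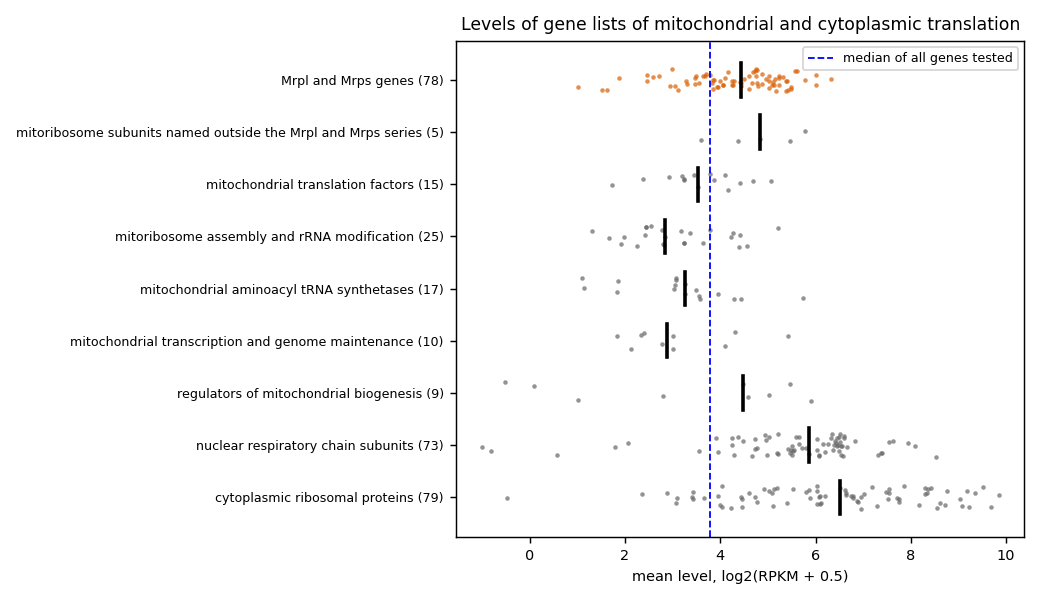
Mean level of every gene, as log2(RPKM + 0.5), in the Mrpl and Mrps set (orange) and in 8 lists of related genes (grey), with the list median as a black bar and the median of all genes tested as a dashed line. Per length, the Mrpl and Mrps median lies above those of the translation factor, assembly, synthetase and genome maintenance lists and below those of the respiratory chain and cytoplasmic ribosomal protein lists.

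The libraries gave almost the same share of their counts to the set. The 78 genes took 0.209%, 0.206% and 0.209% of all counts in replicates 1, 2 and 3 (0.208 ± 0.00173%), so the highest library was 1.015 times the lowest. The large subunit varied by 1.007 times and the small one by 1.040 times. The same ratio was 1.067 for the respiratory chain subunits, 1.074 for the cytoplasmic ribosomal proteins, 1.42 for the mitosis markers and 1.72 for the neutrophil markers. Sums of RPKM gave a like picture, at 1870.5, 1864 and 1895 RPKM for the set. A sum is led by its highest genes and hides changes that cancel.

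Gene by gene, 27 of the 78 members had counts that varied over the 3 libraries beyond Poisson noise (chi-square, Benjamini-Hochberg adjusted p under 0.05 over all genes tested), where 54.6% of all genes tested did. This was a smaller share, 34.6%, at a somewhat lower depth: members had a median of 1279 counts over the 3 libraries, against 1774 for all genes tested. The low ends differed the other way by RPKM, with a 10th percentile of 6.86 RPKM in members and 1.37 RPKM in all genes tested. Apart from the test against genes of like abundance, the comparisons of spread here and below were not matched for level. The SD of log2 CPM between libraries had a median of 0.0997 over the members and 0.140 over all genes tested. In 52 members (66.7%) the highest library was under 1.2 times the lowest, where 48.9% of all genes tested were, and the median of this ratio over the 78 was 1.146. Leaving out a library lowered both: 20 members (25.6%) and 43.3% of all genes tested passed without replicate 1, 14 members (17.9%) and 32.9% without replicate 2, and 8 members (10.3%) and 25.7% without replicate 3, the deepest library.

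Between libraries, 6 members (7.69%) differed by 1.4-fold or more, where 23.1% of all genes tested did. Mrps6, a platform protein of the small subunit, had 11.7, 7.27 and 9.16 RPKM in replicates 1, 2 and 3, a 1.60-fold range, past the Poisson test. Mrps18b, given above, was highest in replicate 2, with a range of 1.55-fold, past the same test. Mrpl12, the stalk protein, was highest in replicate 3 with a range of 1.48-fold, also past it. The other 3 were Mrps25 (1.42-fold), Mrps10 (1.41-fold) and Mrpl36 (1.401-fold), and of these Mrpl36 did not pass. No library was the odd one in all of them. Against genes of like abundance, none of the 78 members was more variable in edgeR's quasi-likelihood fit with Benjamini-Hochberg adjustment, where 0.0165% of all genes tested, 2 genes, were. At an unadjusted p under 0.05 the counts were 0 members and 644 of all genes tested.

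Replicate 3 was processed with CASAVA 1.8.0, Illumina's run-processing software, and replicates 1 and 2 with 1.8.2, so it was set against them. The software version and anything else particular to replicate 3 cannot be told apart, and the lone library was assumed to vary like the other 2. Replicates 1 and 2 themselves differed in Xist (22609 and 94 counts), and whatever goes with that is part of their spread. None of the 78 members passed edgeR's quasi-likelihood test with Benjamini-Hochberg adjustment in either direction, where 0.0576% of all genes tested were higher and 0.0165% lower in replicate 3. DESeq2 also called 0 members. The medians of the members' deviations from their own means were -0.02 in replicate 3, against 0.0034 and 0.0072 in replicates 1 and 2 on the log2 scale. Replicate 3 was above both other libraries in 22 members, where 35.1% of all genes tested were, and below both in 32 members, where 36.1% were.

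Mrpl12 came closest, with 40.2 RPKM in replicate 3, against 29.2 and 27.3 RPKM in replicates 1 and 2. Its log2 fold was 0.51 with a standard error of 0.15, and its adjusted p, the smallest of the set, 0.391 in edgeR's quasi-likelihood test (unadjusted p = 0.0109). Its partner in the stalk, Mrpl10, had 28.0 RPKM in replicate 3, against 35.1 and 33.0 RPKM in replicates 1 and 2, and a log2 fold of -0.28 (edgeR, adjusted p = 0.554). The 2 stalk genes thus lay on opposite sides of 0, each without passing the test. Mrps24, at the messenger RNA entry, had 25.4 RPKM in replicate 3, against 19.3 and 18.8 RPKM (edgeR, log2 fold 0.41, adjusted p = 0.490). At an unadjusted p under 0.05, these 2 members, Mrpl12 and Mrps24, were higher, where 5.01% of all genes tested were, and 0 were lower, where 4.62% were.

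None of the genes in the related lists passed the same edgeR test in either direction, and the lists differed in their unadjusted counts. Of 78 cytoplasmic ribosomal proteins tested, 50 (64.1%) were highest in replicate 3, where 35.1% of all genes tested were. At an unadjusted p under 0.05 in that test, 13 were higher and 1 lower there. Over all genes tested these shares were 5.01% and 4.62%. Of 71 respiratory chain subunits tested, 35 (49.3%) were highest in replicate 3. The median deviation in replicate 3 was 0.06 for the cytoplasmic ribosomal proteins, 0.04 for the respiratory subunits, 0.23 for the mitosis markers, 0.40 for the neutrophil markers and -0.13 for the pre-B markers. It was -0.02 for the members and -0.0018 for all genes tested. Whether the lists differ from each other in this was not tested.

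**Figure D4:**
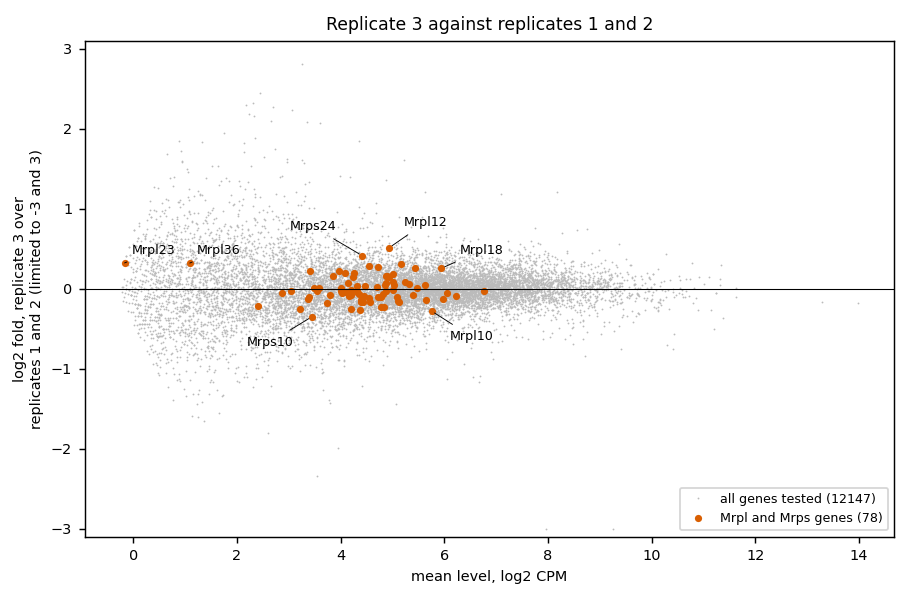
Log2 fold of replicate 3 over replicates 1 and 2 against mean level in log2 CPM for the 78 Mrpl and Mrps genes (orange) and all 12147 genes tested (grey, limited to -3 and 3). The orange points lie around 0, and Mrpl12, at 0.51, is the highest of them.

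Regulators known to act on nuclear genes for mitochondrial proteins were measured in the same libraries. Yy1 had 55.04, 55.5 and 67.2 RPKM, the GABP subunits Gabpb1 and Gabpa 43.6 ± 3.06 and 31.9 ± 1.63 RPKM, Nrf1 23.3 ± 1.89 RPKM and the receptor Esrra 21.6 ± 1.00 RPKM. The coactivators were lower, with Pprc1 at 6.40 ± 1.02 RPKM, Ppargc1a at 0.560 ± 0.134 RPKM and Ppargc1b at 0.194 ± 0.0350 RPKM. Myc, which in many cells raises ribosome and mitochondrial genes, had 1.52 ± 0.604 RPKM. Yy1, Gabpa and Nrf1 thus stood above the median member, and Ppargc1a and Ppargc1b under 1 RPKM. RNA level does not measure the activity of a factor.

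A promoter window of 300 bases, 250 before and 50 from the start site on, was at hand for 69 of the 78 members, and not for Mrpl13, Mrpl54, Mrpl4, Mrps35, Mrpl38, Mrps28, Mrps34, Mrpl15 and Mrpl19. The YY1 motif AANATGGC, on either strand, was in 21 of the 69 windows (30.4%), against 9.73% of the 8960 windows of genes tested and 6.20% of all 27025 windows of the same length. The ETS motif CCGGAAG was in 34.8% of member windows, against 20.3% of windows of genes tested and 9.14% of all windows. The NRF1 motif was in 18.8%, against 11.7% and 4.82%. The other motifs had like shares in all 3 sets of windows: the E-box CACGTG was in 7.25% of member windows, against 10.6% and 7.24%, and CCAAT in 39.1%, against 40.2% and 38.02%. The median GC content of the windows was 58.3% in members, against 60.7% in genes tested and 52.7% in all. No matches of different motifs overlapped, whereas 2 NRF1 matches in Mrps26 and 2 CCAAT matches in Mrpl28 overlapped each other.

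Most YY1 matches lay just after the start site. Of 24 matches in member windows, 16 (66.7%) began at or after the start site, against 46.5% in windows of genes tested, and 16 of the 69 members (23.2%) had such a match, against 4.91%. Counted with the start site as 0, the first bases of these 16 matches lay between 6 and 36, in a window that ends 50 bases after the start, and those of the other 8 between -242 and -30. In the printed sequences they stand at 6 in Mrpl18, 11 in Mrps18a, 16 in Mrpl49, 18 in Mrps7 and Mrpl51, and 20 in Mrpl58, and the motif holds the letters ATG. Mrps18a also has an ETS match at -26 and Mrpl58 has 2, at -17 and -2. Mrpl43 has 2 ETS matches, at -56 and -12, and Mrps21 1 at 18 on the other strand. In Mrpl36 the matches are an E-box at -43 and a YY1 motif at -30 on the other strand, before the start site, and Mrpl23 had none of the 5 motifs in its window.

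The cytoplasmic ribosomal proteins and respiratory chain subunits were not without these letters. The YY1 motif was in 20.7% of 58 windows of cytoplasmic ribosomal proteins and 24.6% of 61 windows of respiratory subunits, the ETS motif in 39.7% and 24.6%, and the NRF1 motif in 6.90% and 26.2%. Within the set, the median level was 32.2 RPKM for the 13 members with an NRF1 match and 19.95 RPKM for the 56 without. It was 26.4 RPKM for 24 members with an ETS match and 18.6 RPKM for 45 without, and 23.6 RPKM for 21 with a YY1 match and 19.8 RPKM for 48 without. The motifs that were not more frequent in members showed the same: 26.1 RPKM for 27 members with CCAAT and 18.5 RPKM for 42 without, and 28.9 RPKM for 5 with an E-box and 19.95 RPKM for 64 without. The 16 members with a YY1 match from the start site on ran from 6.02 to 64.2 RPKM. A match is a run of letters and not a measured binding site, and no test was made of these levels.

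**Figure D5:**
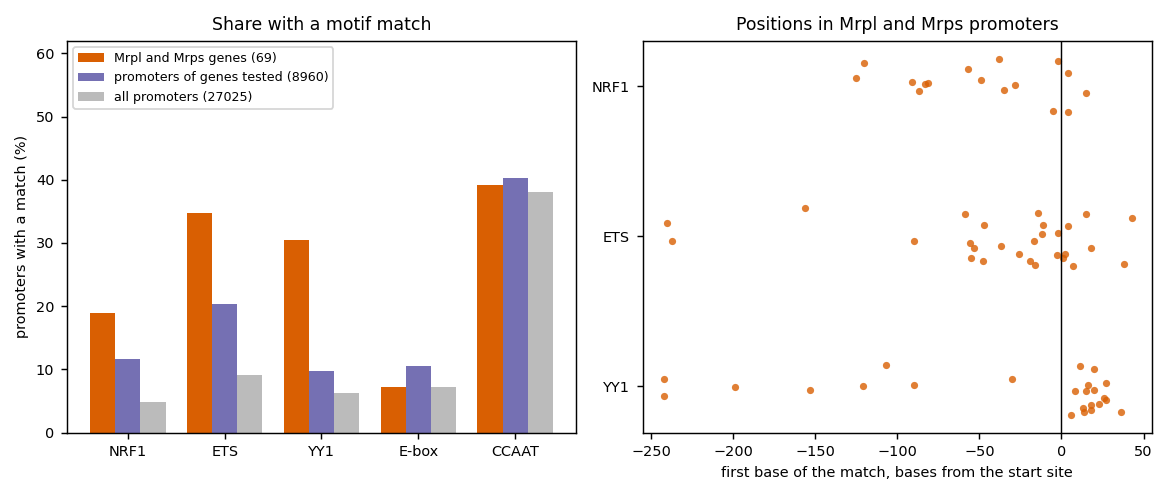
Left, the share of promoter windows with a match to each motif in the Mrpl and Mrps genes (orange), in genes tested (purple) and in all windows (grey). Right, the first base of each NRF1, ETS and YY1 match in the Mrpl and Mrps windows, in bases from the start site: most YY1 matches lie between 6 and 36, after it.

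Many of the genes start next to a gene on the other strand. In a GENCODE annotation of GRCm38, used for neighbour relations only, 32 of the 78 members (41.0%) had a protein-coding gene on the opposite strand whose start lay within 1000 bases, against 17.2% of 10620 genes tested. The partner lay upstream, back to back, for 18 of the 32, and 21 partners were within 200 bases. These make 31 distinct pairs, of which 11 were within 2-fold of each other. In the 30 pairs of a member and another gene, the member had the higher level in 19. Mrpl46 and Mrps11, of the large and small subunit, are each other's partners at 412 bases, with 20.8 ± 1.54 and 16.2 ± 1.83 RPKM. The RefSeq promoter windows place these starts closer together. A start was taken here as the outermost annotated end of a gene, on which the distances and the back-to-back count depend.

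Partners encoded varied functions, and their levels lay from far below to far above those of the members. Mrps12 stood at 23.6 ± 0.0868 RPKM beside Sars2, the mitochondrial seryl-tRNA synthetase, at 14.9 ± 0.490 RPKM, 172 bases away. Mrpl49 stood at 63.4 ± 1.13 RPKM, against 12.1 ± 1.81 RPKM for Fau, which encodes a cytoplasmic ribosomal protein, 59 bases away. The opposite was seen for Mrpl51, at 15.4 ± 1.87 RPKM, against 161 ± 26.3 RPKM for the condensin subunit gene Ncapd2, 100 bases away. Mrpl36 had 2.36 ± 0.392 RPKM, against 30.8 ± 2.64 RPKM for the complex I subunit gene Ndufs6, whose start is 29 bases from its own. Mrps18b had 5.03 ± 1.22 RPKM, against 28.1 ± 1.24 RPKM for Ppp1r10 at 45 bases, so 2 of the lowest members shared a start region with a gene expressed well above them. Mrpl43 (54.6 ± 1.68 RPKM) lay 779 bases from Twnk, the mitochondrial DNA helicase, at 7.53 ± 0.390 RPKM.

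Shared sequence bears on how far single levels can be read, since the treatment of reads that fit several genes, and the strand setting, are stated neither in the labels nor in the files. In the same annotation 57 members had no exon base in another gene. The overlap was largest for Mrps34, with 77.8% of its exon bases in Nme3 or Mapk8ip3, and for Mrps25, with 69.8% in Nr2c2 on the other strand. Among the highest members it was 33.4% for Mrpl43, in Twnk, and 26.3% for Mrpl24, in Rrnad1, both on the other strand. Mrpl19, among the lowest, had 36.0% of its exon bases in Gcfc2, also on the other strand. For 13 members, 20% or more of the words of 31 bases in their transcripts occurred in other genes. They included Mrpl53 (84.4%, mostly in Gm42688), Mrpl43 (38.5%), Mrpl19 (37.9%), Mrps18b (31.6%), Mrpl24 (27.2%) and Mrpl41 (21.1%). The median level was 14.8 RPKM for these 13 and 23.6 RPKM for the other 65. Mrpl23 shared 14.2% of its words and Mrpl36 2.07%. The partner genes above and the genes of the related lists were not examined in this way. The annotation also holds 6 genes of the name pattern that do not code for protein, which were not analysed here.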

How the data were processed

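RNA was prepared with the RNeasy plus mini kit and libraries by Illumina's procedure, per the labels' protocols. The deposited values are raw counts per Entrez gene, summarised by the authors with featureCounts on mm9, per the submitters' processing notes, beside 1 gene length in bases. The sources used here name no aligner, annotation or strand setting. The count columns of the series table and the sample files were equal.

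Here, RPKM was computed from the counts, the TMM factors (1.0003, 0.9969 and 1.0028) and the deposited gene length. Levels are log2(RPKM + 0.5), as mean ± SD over 3 libraries. A minimum count of 10 and total of 15 (filterByExpr) left 12147 genes. Tests used edgeR 4.0.16 (limma 3.58.1, R 4.3.3), with DESeq2 1.42.0 as an alternative, a threshold of 0.05 and Benjamini-Hochberg adjustment over all genes tested, and were tried on simulated data. Totals between 12021576 and 32086649 counts give replicate 3 the least counting error.

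Names came from a GRCm38 annotation by Entrez identifier, and no coordinate was taken to mm9. Promoter windows are those of RefSeq on GRCm38.p6, and shared words of 31 bases were counted in GRCm38 transcripts. The members, lists and tests were chosen with earlier results of these data known. All members could be named by role, and by value the 8 highest and 8 lowest and those most variable or most different in replicate 3. In each related list the highest and lowest genes could be named. Thinning of replicate 3 and CPM for the comparisons of the members with all genes and with the lists were added after seeing the data.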

Additional observations from a re-analysis of the deposited data

How the results depend on the processing

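Of 64 alternatives to the main results, 47 were classed as unchanged, 15 as moved and 2 as reversed. For levels and differences, unchanged meant the same sign and a shift within the spread between libraries. Some of those moved therefore kept their direction. For counts of members, unchanged meant a number near the main one: 20 in place of 27 was classed as unchanged and 14 as moved. All 18 alternatives for the 6 single genes tried were unchanged. The median level of the members was 5.66 with TPM and 4.52 with CPM, in place of 4.43. With CPM the large minus small subunit difference was 0.42, in place of 0.49, and that of members with a bacterial counterpart minus the others 0.0093, in place of -0.12, so the sign of the second rested on the division by length. With CPM, chosen for this after seeing the data, the median difference of the members turned to -0.47 against all genes tested, in place of 0.65, and to -0.0565 against the synthetases, in place of 1.21. It moved to 0.0183 against the translation factors, 0.61 against the assembly genes, 0.84 against the genome maintenance genes, -1.09 against both the other ribosomal subunits and the regulators, -1.06 against the respiratory subunits and -1.70 against the cytoplasmic ribosomal proteins. With a minimum of 30 RPKM, 21 members passed in all libraries, in place of 63 at 10 RPKM, which brought their share (26.9%) close to that of all genes tested (24.1%). The number of members beyond Poisson noise, 27, was 8 to 20 when 1 library was left out. The share of all genes tested was then between 25.7% and 43.3%. Once replicate 3 was thinned to the total of the shallowest library, 20 members (25.6%) and 46.4% of all genes tested passed. This setting was chosen after seeing the data. The median difference of members, replicate 3 minus replicates 1 and 2, was -0.026, and -0.0233 to -0.0149 without replicate 2 or 1. Without replicate 1 or 2 the contrast of replicate 3 left no degree of freedom and gave no test. No paired analysis was possible because all 3 libraries belong to 1 group.

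Depth limits the lowest members, with 10 counts for Mrpl23 in each of replicates 1 and 2. With 3 libraries, the tests miss small differences, and no second condition was there to compare. The counts of DESeq2 (36 of all genes), of no scaling (23) and of all genes with a count (0) in the contrast of replicate 3 differed by over 1.5 times from the 9 of edgeR, and 0 members were called in each. For spread beyond genes of like abundance, 0 members were called in each fit, and of all genes tested 2, 0 with the robust fit, 47 with all genes with a count, and 2 to 44 without one library.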

Other observations

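The mitochondrial aminoacyl-tRNA synthetases, which charge the tRNAs used by this ribosome, varied more between libraries as a sum than the ribosomal proteins. They took 0.0669% of the counts in replicate 3, against 0.0647% and 0.0560% in replicates 1 and 2, a ratio of 1.195. One gene, Lars2, the mitochondrial leucyl-tRNA synthetase, was far above the rest of the list. It had 67.9 RPKM in replicate 3, against 56.1 and 33.5 RPKM in replicates 1 and 2. The list summed to 209 RPKM in replicate 3, against 205 and 185 RPKM, a narrower range than that of Lars2 alone. The ratio thus does not describe the other synthetases. The next genes, Hars2 and Iars2, had 21.1 ± 1.13 and 19.0 ± 2.09 RPKM, and the lowest, Nars2 and Ears2, 1.70 ± 0.141 and 1.65 ± 0.163 RPKM. None of the 17 passed edgeR's quasi-likelihood test of replicate 3 with Benjamini-Hochberg adjustment.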
